A study of Homo sapiens with 12 samples.

Results

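The endoplasmic reticulum (ER) chaperones and the genes of the unfolded protein response were followed in A2058 cells, an established human melanoma line, with the level of the transcription factor MITF raised or lowered. The set held 32 genes, chosen by name out of 26364 genes in the deposited count table with earlier results of these data known. All 32 passed the filter on low counts, as did 14297 genes in all. MITF, the master regulator of the melanocyte lineage, was overexpressed from a pLVX lentiviral vector or knocked down by siRNA. There were 4 groups of 3 libraries each, labelled as biological replicates. The MITF overexpression cells carried the vector with MITF after puromycin selection, and the empty vector cells were treated alike with a vector lacking MITF. The MITF siRNA and scrambled siRNA cells were transfected by lipofection for 48 hours, and the labels name no viral vector for them. The promoter that drives MITF in the vector and the siRNA sequences were not analysed here. All cells came from 1 line, so p-values measure the spread between libraries of that line.

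Secreted and membrane proteins, among them the melanosomal proteins that melanocytic cells make, fold in the ER with the help of chaperones, lectins and disulfide isomerases. When unfolded proteins build up, the sensors IRE1 (the product of ERN1), ATF6 and PERK (the product of EIF2AK3) start the unfolded protein response. ATF6 and the spliced form of XBP1 raise the transcription of chaperone and degradation genes, while PERK slows translation and favours the production of ATF4. Misfolded proteins are moved back to the cytosol and destroyed by ER-associated degradation. Counts per gene show none of the splicing of XBP1, the cleavage of ATF6 or the phosphorylation of PERK.

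Promoters of this set are known for the ER stress response element (ERSE), which ATF6 binds together with the CCAAT-binding factor NF-Y. The sequence from 250 bases before to 50 bases after the start of each gene was searched on both strands, using RefSeq promoter sequences of build GRCh38.p14, which is not the build of the counts. A window was found for 28 of the 32 genes, and the search window of DERL1, DERL3, PDIA3 and SEC24D was not analysed here. The ERSE letters, CCAAT and CCACG with any 9 bases between them, were found in 7 of 28 members (25.0%) and in 25 of 27305 genes (0.0916%). These 7 members were HSPA5, HSP90B1, CALR, CANX, PDIA6, CRELD2 and XBP1. The shorter ERSE-II letters, ATTGG and CCACG with any 1 base between them, were found in HYOU1, SDF2L1 and HERPUD1, that is 3 of 28 members (10.7%) against 19 of all genes (0.0696%). ERSE and ERSE-II both hold CCACG, but no member had both. The UPRE letters, TGACGTGG, were found in HYOU1 and TXNDC5 (7.14% of members, 0.927% of genes). In HYOU1 they share 5 bases with an ERSE-II match. MITF binds E-box motifs: CACGTG was found in HSP90B1, DNAJB9, CANX, HERPUD1 and SSR1 (17.9% of members, 8.77% of genes), and CATGTG in MANF alone (3.57% of members, 13.4% of genes). A match describes letters only, and binding was not measured.

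The ERSE and ERSE-II matches of the members are shown. Of the motifs searched, ERSE was the one found in most members, 7 of 28. ERSE-II, which also holds CCACG, was in 3 of 28, fewer than the 5 of 28 with the E-box CACGTG, whose matches are not printed. Each is printed 5′ to 3′ on the strand of its gene, in lower case with the match in capitals. Matches that lie in reverse appear as the reverse complement, with CGTGG before ATTGG for ERSE and CGTGG before CCAAT for ERSE-II. These are the HSP90B1 match at chr12:103930301-103930359, those of CALR, CRELD2 and SDF2L1, and both of HYOU1. For HSPA5, the gene of the master chaperone BiP, the 250 bases before the start are given, which hold 4 CCAAT boxes on either strand.
HSPA5 upstream sequence, chr9:125241344-125241593, minus strand: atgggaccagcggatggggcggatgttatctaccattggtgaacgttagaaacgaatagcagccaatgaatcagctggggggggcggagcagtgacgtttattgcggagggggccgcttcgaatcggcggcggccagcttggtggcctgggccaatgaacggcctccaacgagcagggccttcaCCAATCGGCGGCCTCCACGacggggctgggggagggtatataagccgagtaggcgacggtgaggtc
HSP90B1 ERSE, chr12:103930196-103930254, plus strand: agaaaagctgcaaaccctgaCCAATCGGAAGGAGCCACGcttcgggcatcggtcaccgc
HSP90B1 ERSE, chr12:103930301-103930359, plus strand: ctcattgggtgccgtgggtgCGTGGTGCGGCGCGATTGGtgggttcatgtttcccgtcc
CALR ERSE, chr19:12938364-12938422, plus strand: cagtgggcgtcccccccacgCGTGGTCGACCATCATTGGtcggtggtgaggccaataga
CANX ERSE, chr5:179698758-179698816, plus strand: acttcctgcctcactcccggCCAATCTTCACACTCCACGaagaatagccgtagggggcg
PDIA6 ERSE, chr2:10812833-10812891, minus strand: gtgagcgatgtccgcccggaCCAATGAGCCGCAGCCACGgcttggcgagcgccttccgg
CRELD2 ERSE, chr22:49918534-49918592, plus strand: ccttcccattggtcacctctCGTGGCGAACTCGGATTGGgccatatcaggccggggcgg
XBP1 ERSE, chr22:28800583-28800641, minus strand: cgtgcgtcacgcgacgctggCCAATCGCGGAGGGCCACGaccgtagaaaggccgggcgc
HYOU1 ERSE-II, chr11:119057360-119057410, minus strand: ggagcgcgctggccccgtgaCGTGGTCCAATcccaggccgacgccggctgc
HYOU1 ERSE-II, chr11:119057254-119057304, minus strand: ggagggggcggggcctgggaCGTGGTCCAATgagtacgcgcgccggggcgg
SDF2L1 ERSE-II, chr22:21642094-21642144, plus strand: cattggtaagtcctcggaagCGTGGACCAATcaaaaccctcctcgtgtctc
HERPUD1 ERSE-II, chr16:56932005-56932055, plus strand: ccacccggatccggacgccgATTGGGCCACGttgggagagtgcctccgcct

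Total counts ran from 14671314 to 21246063 with MITF overexpression, from 7427637 to 14500191 with the empty vector, from 17870695 to 23938392 with MITF siRNA and from 13100703 to 14287537 with scrambled siRNA. Levels are given as CPM (counts in each library relative to its TMM-scaled total), and libraries of a group correlated at 0.995 or more on the log2 scale. MITF itself had 658, 679 and 633 CPM with MITF overexpression, against 299, 311 and 301 CPM with the empty vector. It had 343, 322 and 365 CPM with MITF siRNA, against 504, 465 and 431 CPM with scrambled siRNA. MITF was thus higher by 2.16-fold in the first pair and lower by 1.36-fold in the second, and it was higher by 1.13-fold with MITF siRNA when set against the empty vector, a call lost without MITF siRNA replicate 3 (adjusted p = 0.0601). All 9 melanocyte markers listed were present in every library. KRT5, HBB and CD3E were at 0 counts in every library, and the lists of 4 epithelial, 3 endothelial and 3 blood markers each summed to at most 1.30 CPM. The 4 fibroblast markers, nearly all of it LUM, summed to 29.4 to 32.5 CPM with MITF overexpression, against 23.6 to 24.6 CPM with the empty vector, and to 15.0 to 19.1 CPM with MITF siRNA, against 14.3 to 16.0 CPM with scrambled siRNA; none of the 4 was at 0 in all libraries.

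With MITF overexpression the set was lower almost throughout. Of the 32 genes, 26 fell and 1 rose against the empty vector at an adjusted p under 0.05, and 5 were not called. Of all 14297 genes tested, 30.8% were called lower and 28.6% higher. The median log2 fold change of the set was -0.425, against 0.00371 over all tested genes. In 27 of the 32 genes every library with MITF overexpression lay below every library with the empty vector, and in 1 gene every library lay above, against 33.2% of all tested genes below and 4568 of the 14297 above. The genes fell in all 6 role classes: 7 of 8 lumenal chaperones, 2 of 2 lectin chaperones, 7 of 7 isomerases, 4 of 7 degradation genes, 2 of 4 genes of the sensors and XBP1, and 4 of 4 entry and export genes. In bulk RNA, fewer cells expressing a gene and less RNA per cell cannot be told apart. Unless DESeq2 is named, every adjusted p for a gene comes from edgeR's quasi-likelihood test with Benjamini-Hochberg adjustment over all 14297 genes.

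With MITF siRNA most of the set moved the other way. Here 19 genes rose, 2 fell and 11 were not called against scrambled siRNA, where 18.7% of all genes were called higher and 16.7% lower. The median log2 fold change was 0.259, against -0.00263 over all tested genes. By role, 6 of 8 lumenal chaperones rose, as did 1 of 2 lectin chaperones, 6 of 7 isomerases, 1 of 7 degradation genes, 2 of 4 genes of the sensors and XBP1, and 3 of 4 entry and export genes. The 2 genes that fell, SEL1L and EDEM1, both belong to ER-associated degradation. In 23 genes every library with MITF siRNA lay above every library with scrambled siRNA, and in 2 genes every library lay below, against 23.0% of all tested genes above and 21.4% below.

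**Figure D1:**
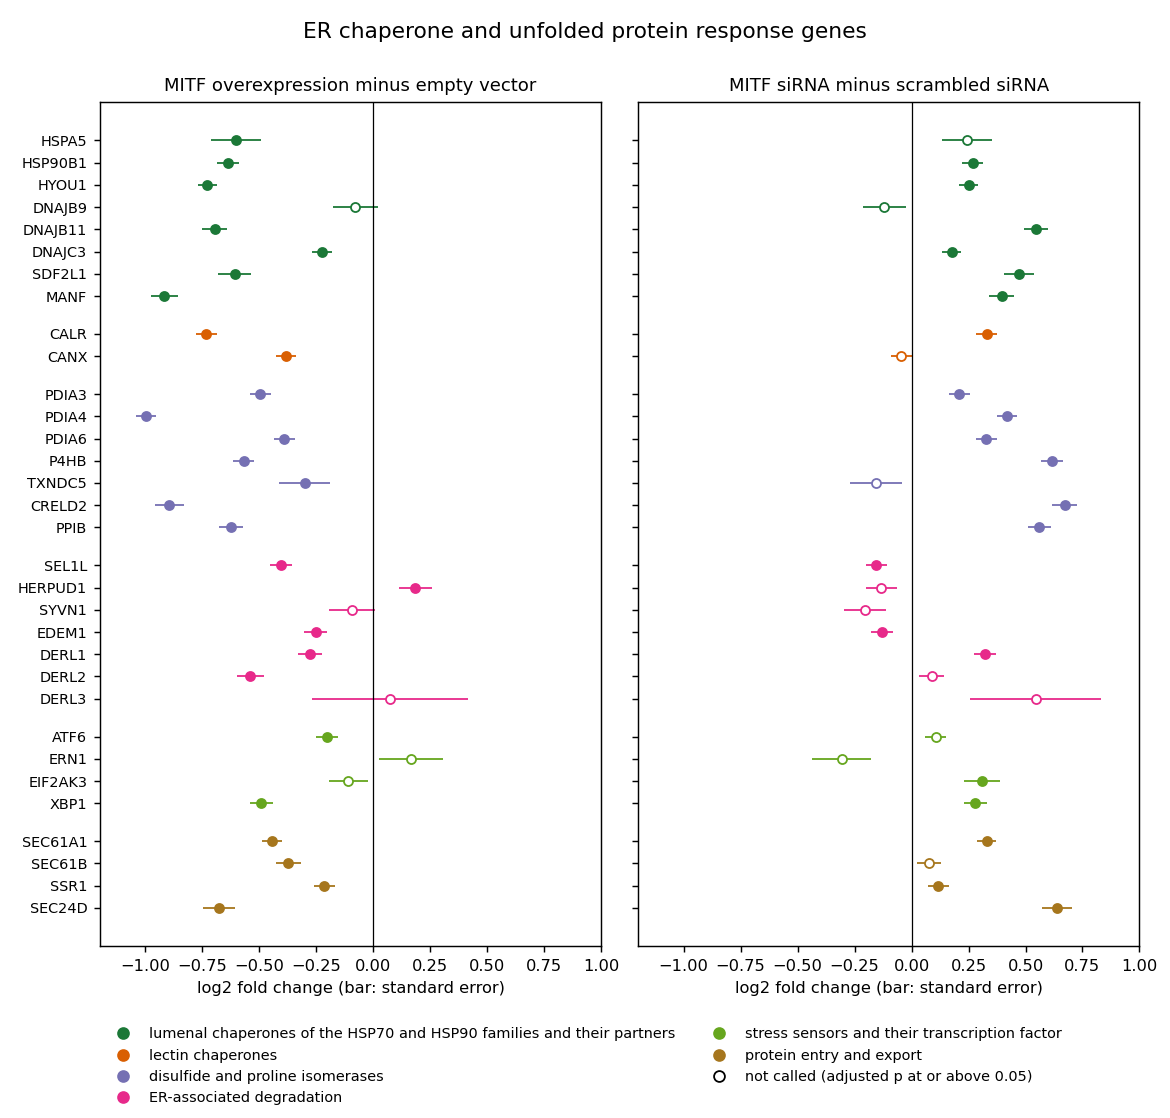
Log2 fold change of each of the 32 genes (x axis) by role, with MITF overexpression against the empty vector on the left and MITF siRNA against scrambled siRNA on the right. Points are fitted values, bars are standard errors and open points are genes not called; 26 genes were called lower on the left and 19 higher on the right.

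Summed over the set, the 32 genes took 0.763%, 0.734% and 0.770% of all counts with MITF overexpression, against 1.03%, 1.04% and 1.02% with the empty vector. They took 1.13%, 1.19% and 1.13% with MITF siRNA, against 1.00%, 1.02% and 0.969% with scrambled siRNA. Neither pair overlapped. The share was 0.732 times that of the empty vector in the first pair and 1.15 times that of scrambled siRNA in the second. An exact two-sided permutation test gave p = 0.1 for each, the smallest that 3 against 3 libraries allow. MITF siRNA replicate 2 was the highest of its group in 27 of 32 genes. How often this library was the highest over all tested genes was not counted, so a trait of the whole library cannot be told from one of the set. Without MITF siRNA replicate 2, 18 genes were called higher and 2 lower against scrambled siRNA.

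The nuclear long noncoding RNAs MALAT1 and NEAT1 were above the empty vector in every library with MITF overexpression, and in the siRNA pair the groups overlapped for both. MALAT1 took 1.22% to 1.27% of counts with MITF overexpression, against 0.480% to 0.666% with the empty vector, and 0.273% to 0.635% with MITF siRNA, against 0.553% to 0.758% with scrambled siRNA. NEAT1 took 0.846% to 0.961% with MITF overexpression, against 0.207% to 0.249% with the empty vector, and 0.0805% to 0.311% with MITF siRNA, against 0.277% to 0.489% with scrambled siRNA. The lowest shares of both within the MITF siRNA group were in replicate 2, the library in which most members were highest. Whether the RNA makeup of the libraries takes part in the changes of the set was not tested.

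HSPA5 encodes BiP, the HSP70-family chaperone that binds unfolded chains in the ER lumen and holds the stress sensors inactive. HSPA5 had 354, 325 and 388 CPM with MITF overexpression, against 515, 627 and 482 CPM with the empty vector. It had 571, 679 and 638 CPM with MITF siRNA, against 525, 565 and 507 CPM with scrambled siRNA. Neither pair overlapped, but empty vector replicate 2 stood above the rest of its group. The log2 fold change was -0.60 (SE 0.11, adjusted p = 0.00127) with overexpression and 0.24 (SE 0.11, adjusted p = 0.126) with MITF siRNA, so that the second was not called. In a fit of the MITF siRNA and scrambled siRNA libraries alone it was called, at 0.23 and adjusted p = 0.00474. HSP90B1 encodes GRP94, the HSP90 of the ER. HSP90B1 had 1032, 958 and 1013 CPM with MITF overexpression, against 1532, 1616 and 1524 CPM with the empty vector. It had 1654, 1816 and 1701 CPM with MITF siRNA, against 1427, 1478 and 1389.5 CPM with scrambled siRNA. All libraries of a pair were apart, with log2 fold changes of -0.64 (SE 0.046, adjusted p = 4.81e-14) and 0.27 (SE 0.046, adjusted p = 1.91e-05). HYOU1 encodes GRP170, a large relative of HSP70 that acts as an exchange factor for BiP. HYOU1 had 188, 179 and 191 CPM with MITF overexpression, against 306, 301 and 316 CPM with the empty vector. It had 369.8, 377 and 355 CPM with MITF siRNA, against 309.5, 312 and 304 CPM with scrambled siRNA. Its groups were tight and apart in both pairs, at -0.73 (SE 0.043, adjusted p = 1.26e-16) and 0.25 (SE 0.041, adjusted p = 1e-05).

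The J-domain proteins hand unfolded clients to BiP. DNAJB11 binds unfolded chains directly. DNAJB11 had 94.7, 90.2 and 102 CPM with MITF overexpression, against 149.6, 157 and 158 CPM with the empty vector. It had 192, 224 and 197 CPM with MITF siRNA, against 138, 146 and 136 CPM with scrambled siRNA. It fell with overexpression, at -0.70 (SE 0.055, adjusted p = 1.56e-12), and rose with MITF siRNA, at 0.55 (SE 0.053, adjusted p = 8.09e-10), with no overlap in either pair. DNAJC3 encodes p58IPK, a BiP co-chaperone. DNAJC3 had 255, 249 and 239.7 CPM with MITF overexpression, against 284, 292 and 294 CPM with the empty vector. It had 299.7, 319 and 301 CPM with MITF siRNA, against 284, 273 and 258 CPM with scrambled siRNA. The pairs again did not overlap, though the changes were smaller, at -0.23 (SE 0.044, adjusted p = 4.32e-05) and 0.18 (SE 0.043, adjusted p = 0.00169). DNAJB9 encodes ERdj4, which represses IRE1 through BiP. DNAJB9 had 15.5, 13.4 and 14.3 CPM with MITF overexpression, against 14.0, 15.0 and 17.1 CPM with the empty vector. It had 14.2, 15.1 and 13.0 CPM with MITF siRNA, against 14.5, 15.9 and 15.4 CPM with scrambled siRNA. DNAJB9 overlapped in both pairs, at -0.08 (SE 0.099, adjusted p = 0.507) and -0.12 (SE 0.094, adjusted p = 0.345). It shares exon bases with THAP5 and PNPLA8 on the opposite strand, and whether reads were counted by strand is not stated in the labels.

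SDF2L1 works with DNAJB11 to keep clients soluble. SDF2L1 had 26.6, 24.2 and 23.6 CPM with MITF overexpression, against 39.8, 35.8 and 37.2 CPM with the empty vector. It had 51.0, 55.5 and 49.1 CPM with MITF siRNA, against 38.0, 39.3 and 34.7 CPM with scrambled siRNA. Every library with MITF overexpression was below those of the empty vector and every library with MITF siRNA above those of scrambled siRNA, at -0.61 (SE 0.073, adjusted p = 6.92e-09) and 0.47 (SE 0.064, adjusted p = 4.18e-07). MANF is a small lumenal protein that binds BiP and is secreted under stress. MANF had 48.2, 46.7 and 51.8 CPM with MITF overexpression, against 91.1, 92.9 and 92.8 CPM with the empty vector. It had 105, 120.5 and 106 CPM with MITF siRNA, against 88.1, 84.3 and 79.3 CPM with scrambled siRNA. Its level was 1.89-fold lower with overexpression, at -0.92 (SE 0.059, adjusted p = 1.94e-15), and it rose with MITF siRNA, at 0.40 (SE 0.055, adjusted p = 5.01e-07).

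**Figure D2:**
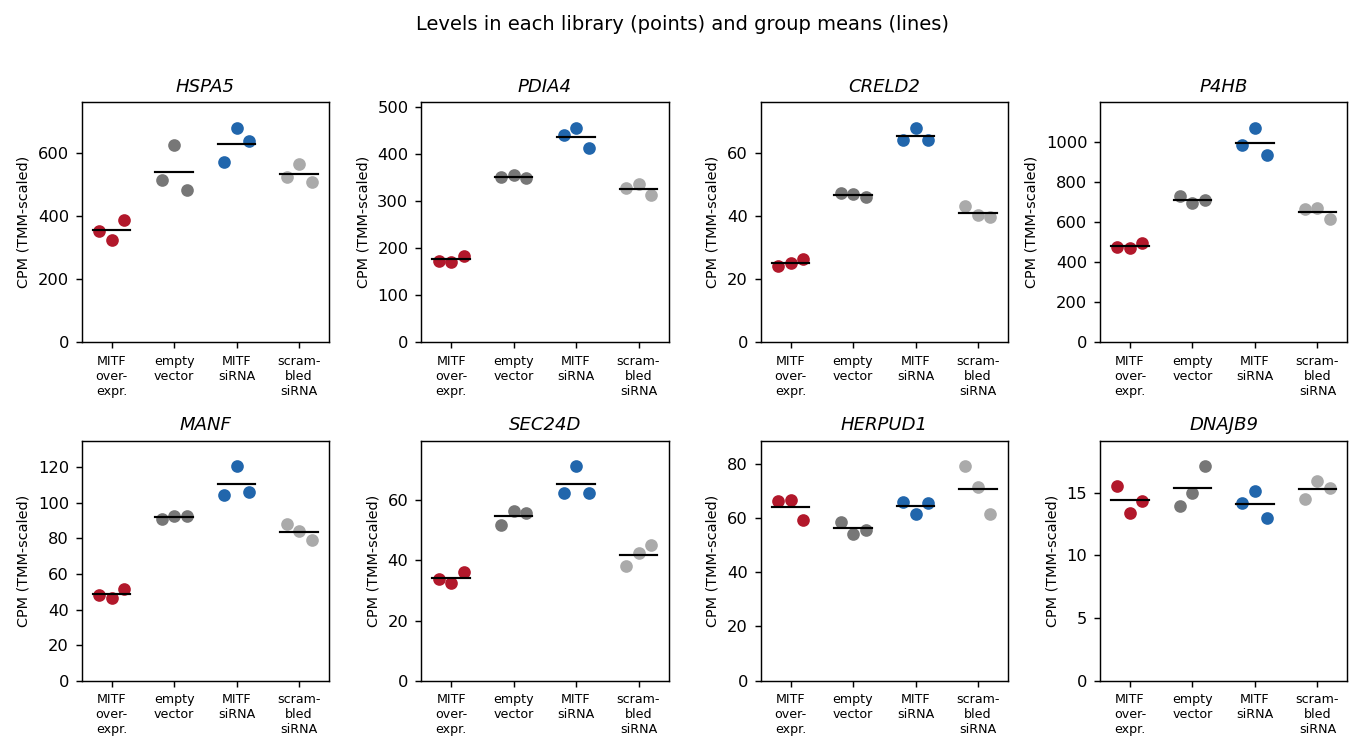
CPM (y axis, from 0) of 8 members in each library (points) with group means (lines), in the order MITF overexpression, empty vector, MITF siRNA, scrambled siRNA. PDIA4, CRELD2, P4HB, MANF and SEC24D are lowest with MITF overexpression and highest with MITF siRNA, while DNAJB9 overlaps in both pairs.

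The lectin chaperones calreticulin and calnexin hold glycoproteins through their sugar chains until they are folded. CALR is the soluble form. CALR had 814, 780.4 and 842 CPM with MITF overexpression, against 1345, 1368 and 1335 CPM with the empty vector. It had 1489, 1639 and 1498 CPM with MITF siRNA, against 1226, 1247 and 1209.9 CPM with scrambled siRNA. CALR fell and rose with no overlap, at -0.73 (SE 0.045, adjusted p = 5.77e-16) and 0.33 (SE 0.045, adjusted p = 4.11e-07). CANX, the membrane-bound form, was the member with the most counts. CANX had 1587, 1517 and 1595 CPM with MITF overexpression, against 2007, 2068 and 2055 CPM with the empty vector. It had 1903, 2055 and 1872 CPM with MITF siRNA, against 2061, 2029.9 and 1923 CPM with scrambled siRNA. CANX fell with overexpression, at -0.38 (SE 0.046, adjusted p = 6.89e-09), and overlapped in the siRNA pair, at -0.04 (SE 0.046, adjusted p = 0.48).

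Protein disulfide isomerases make and rearrange disulfide bonds. PDIA4 (ERp72) had the lowest fold change of the set with MITF overexpression against the empty vector. PDIA4 had 174, 172 and 184 CPM with MITF overexpression, against 352, 355 and 350.4 CPM with the empty vector. It had 440.1, 456 and 413 CPM with MITF siRNA, against 328, 337 and 313 CPM with scrambled siRNA. PDIA4 was 2.00-fold lower with overexpression, at -0.998 (SE 0.045, adjusted p = 9.23e-20), and higher with MITF siRNA, at 0.42 (SE 0.043, adjusted p = 1.62e-09). P4HB is the founding isomerase and a subunit of collagen prolyl hydroxylase. P4HB had 474, 469 and 496 CPM with MITF overexpression, against 728, 696 and 711 CPM with the empty vector. It had 982, 1068 and 936 CPM with MITF siRNA, against 662, 669 and 616 CPM with scrambled siRNA. It moved about as far in each pair, at -0.57 (SE 0.047, adjusted p = 1.34e-12) and 0.62 (SE 0.047, adjusted p = 1.45e-12), with no overlap. PDIA3 (ERp57) works with the lectin chaperones on glycoproteins. PDIA3 had 417, 395 and 402 CPM with MITF overexpression, against 542, 587 and 586 CPM with the empty vector. It had 677, 739 and 659.7 CPM with MITF siRNA, against 595, 616 and 584 CPM with scrambled siRNA. The groups were apart, at -0.50 (SE 0.046, adjusted p = 2.42e-11) and 0.21 (SE 0.046, adjusted p = 0.000421). PDIA3 has a pseudogene, PDIA3P1, which took 1594 counts over the 12 libraries, against 107212 for PDIA3. PDIA6 (P5) also dampens the IRE1 sensor. PDIA6 had 294, 281 and 301 CPM with MITF overexpression, against 397, 388 and 362 CPM with the empty vector. It had 466, 521 and 459 CPM with MITF siRNA, against 388, 383 and 382 CPM with scrambled siRNA. PDIA6 did not overlap in either pair, at -0.39 (SE 0.047, adjusted p = 7.84e-09) and 0.33 (SE 0.046, adjusted p = 7.02e-07).

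CRELD2, a stress-induced protein with isomerase activity, had the highest rise with MITF siRNA among the called members. CRELD2 had 24.2, 25.2 and 26.3 CPM with MITF overexpression, against 47.3, 46.9 and 46.1 CPM with the empty vector. It had 64.0, 67.9 and 64.1 CPM with MITF siRNA, against 43.2, 40.3 and 39.6 CPM with scrambled siRNA. It was 1.86-fold lower in the first pair, at -0.90 (SE 0.063, adjusted p = 1.94e-14), and 1.59-fold higher in the second, at 0.67 (SE 0.056, adjusted p = 1.38e-11). PPIB (cyclophilin B) turns proline bonds and helps collagen fold. PPIB had 99.8, 95.3 and 103 CPM with MITF overexpression, against 152, 156 and 152 CPM with the empty vector. It had 193, 224 and 199 CPM with MITF siRNA, against 136, 142 and 140.4 CPM with scrambled siRNA. PPIB had no overlap, at -0.62 (SE 0.051, adjusted p = 1.17e-12) and 0.56 (SE 0.049, adjusted p = 4.32e-11). TXNDC5 (ERp46) is a further disulfide isomerase, at low counts here. TXNDC5 had 9.71, 10.8 and 10.3 CPM with MITF overexpression, against 11.01, 14.2 and 13.5 CPM with the empty vector. It had 7.99, 7.64 and 7.98 CPM with MITF siRNA, against 7.80, 8.92 and 9.56 CPM with scrambled siRNA. TXNDC5 was lower with overexpression, at -0.30 (SE 0.11, adjusted p = 0.019), and overlapped in the siRNA pair, at -0.16 (SE 0.12, adjusted p = 0.313). The first call was lost without empty vector replicate 2 (adjusted p = 0.0885), without empty vector replicate 3 (0.0952), without MITF overexpression replicate 1 (0.0708) and in DESeq2 (0.0571). Its exons are shared with the readthrough gene BLOC1S5-TXNDC5, which had 0 counts, so its own counts are uncertain.

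Among the genes of ER-associated degradation, SEL1L and EDEM1 were lower in both pairs and DERL1 was lower in the first and higher in the second. SEL1L is the adaptor of the ubiquitin ligase HRD1. SEL1L had 107, 104 and 105 CPM with MITF overexpression, against 135, 141 and 143 CPM with the empty vector. It had 122, 129.6 and 119 CPM with MITF siRNA, against 143, 137 and 133 CPM with scrambled siRNA. SEL1L was lower in both pairs with no overlap, at -0.40 (SE 0.048, adjusted p = 5.04e-09) and -0.15 (SE 0.046, adjusted p = 0.00845). The second call was lost without scrambled siRNA replicate 1 (adjusted p = 0.0555). SYVN1 encodes HRD1 itself. SYVN1 had 15.9, 17.7 and 17.5 CPM with MITF overexpression, against 15.4, 21.6 and 18.8 CPM with the empty vector. It had 17.4, 16.2 and 17.8 CPM with MITF siRNA, against 17.4, 20.9 and 20.9 CPM with scrambled siRNA. SYVN1 overlapped in both, at -0.09 (SE 0.10, adjusted p = 0.432) and -0.20 (SE 0.094, adjusted p = 0.0908); without scrambled siRNA replicate 1 the second was called (-0.28, adjusted p = 0.0263). It shares exon bases with FAU on the same strand. EDEM1 takes mannose-trimmed glycoproteins to degradation. EDEM1 had 152, 139 and 145 CPM with MITF overexpression, against 174, 179 and 167 CPM with the empty vector. It had 153, 163 and 147 CPM with MITF siRNA, against 163, 172 and 171 CPM with scrambled siRNA. EDEM1 fell with overexpression, at -0.25 (SE 0.048, adjusted p = 2.91e-05), and was called lower with MITF siRNA, at -0.13 (SE 0.047, adjusted p = 0.0314), where its libraries overlapped. That second call was lost without MITF siRNA replicate 1 (adjusted p = 0.0747) or 3 (0.143), without scrambled siRNA replicate 2 (0.107) or 3 (0.0607) and in DESeq2 (0.0642).

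HERPUD1 organises the HRD1 complex and was the 1 member called higher with overexpression. HERPUD1 had 66.3, 66.5 and 59.1 CPM with MITF overexpression, against 58.6, 54.2 and 55.6 CPM with the empty vector. It had 65.8, 61.4 and 65.6 CPM with MITF siRNA, against 79.0, 71.3 and 61.4 CPM with scrambled siRNA. The first pair did not overlap, at 0.18 (SE 0.072, adjusted p = 0.0299), and the second did, at -0.13 (SE 0.067, adjusted p = 0.131). The first call was lost without MITF overexpression replicate 1 (adjusted p = 0.139) or 2 (0.136), without empty vector replicate 2 (0.0953) or 3 (0.0877) and in DESeq2 (0.0524). Without scrambled siRNA replicate 3 HERPUD1 was called lower with MITF siRNA, at -0.24 and adjusted p = 0.00373.

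The derlins help move misfolded proteins out of the ER. DERL1 had 79.6, 81.2 and 82.8 CPM with MITF overexpression, against 98.0, 101 and 96.5 CPM with the empty vector. DERL1 had 119, 132 and 119 CPM with MITF siRNA, against 97.3, 102 and 96.6 CPM with scrambled siRNA. DERL1 followed the chaperones without overlap, at -0.28 (SE 0.051, adjusted p = 1.86e-05) and 0.32 (SE 0.049, adjusted p = 2.66e-06). DERL2 had 37.1, 35.3 and 36.9 CPM with MITF overexpression, against 51.1, 54.9 and 53.5 CPM with the empty vector. DERL2 had 45.5, 47.9 and 46.3 CPM with MITF siRNA, against 43.2, 43.4 and 44.9 CPM with scrambled siRNA. DERL2 fell with overexpression, at -0.54 (SE 0.058, adjusted p = 7.5e-10), and was not called with MITF siRNA, at 0.09 (SE 0.056, adjusted p = 0.233), although the libraries did not overlap. DERL3 was the member with the fewest counts, 312 over the 12 libraries. It shares exon bases with SMARCB1 on the opposite strand, which had 8813 counts. Whether reads were counted by strand is not stated in the labels. DERL3 had 1.82, 1.67 and 0.462 CPM with MITF overexpression, against 1.45, 1.38 and 1.11 CPM with the empty vector. DERL3 had 2.32, 1.96 and 2.15 CPM with MITF siRNA, against 1.84, 1.55 and 1.03 CPM with scrambled siRNA. It was called in neither pair, at 0.07 (SE 0.34, adjusted p = 0.869) and 0.55 (SE 0.29, adjusted p = 0.146).

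Among the sensors and their factors, XBP1, the transcription factor downstream of IRE1, changed most with overexpression. XBP1 had 88.1, 84.3 and 82.0 CPM with MITF overexpression, against 126, 114 and 117 CPM with the empty vector. It had 117, 125 and 115 CPM with MITF siRNA, against 101, 97.1 and 96.5 CPM with scrambled siRNA. XBP1 did not overlap in either pair, at -0.49 (SE 0.051, adjusted p = 2.91e-10) and 0.28 (SE 0.049, adjusted p = 2.7e-05). ATF6 is the sensor that is cut in the Golgi to free a transcription factor. ATF6 had 164, 156 and 157 CPM with MITF overexpression, against 176, 189.9 and 184 CPM with the empty vector. It had 163, 181 and 162 CPM with MITF siRNA, against 156, 153 and 159.9 CPM with scrambled siRNA. ATF6 fell with overexpression, at -0.20 (SE 0.048, adjusted p = 0.000462), and was not called with MITF siRNA, at 0.11 (SE 0.047, adjusted p = 0.0814). EIF2AK3 encodes the kinase PERK. EIF2AK3 had 17.0, 17.5 and 17.0 CPM with MITF overexpression, against 18.4, 18.9 and 18.5 CPM with the empty vector. It had 24.9, 23.0 and 22.9 CPM with MITF siRNA, against 19.9, 16.9 and 20.4 CPM with scrambled siRNA. EIF2AK3 was higher with MITF siRNA, at 0.31 (SE 0.079, adjusted p = 0.00206), and stood at -0.11 (SE 0.086, adjusted p = 0.279) with overexpression. The call was lost without scrambled siRNA replicate 2 (0.22, adjusted p = 0.0514). ERN1, the gene of IRE1, had few counts. ERN1 had 6.38, 6.81 and 6.99 CPM with MITF overexpression, against 6.40, 6.61 and 4.95 CPM with the empty vector. It had 5.50, 5.84 and 5.57 CPM with MITF siRNA, against 8.03, 6.18 and 6.77 CPM with scrambled siRNA. ERN1 was not called in either, at 0.16 (SE 0.14, adjusted p = 0.322) and -0.31 (SE 0.13, adjusted p = 0.0658); the second was called without scrambled siRNA replicate 2 (-0.40, adjusted p = 0.0394) and under upper quartile scaling (-0.34, adjusted p = 0.0397).

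SEC61A1 and SEC61B are subunits of the channel through which chains enter the ER. SEC61A1 had 269, 272 and 278 CPM with MITF overexpression, against 374, 362 and 377 CPM with the empty vector. SEC61A1 had 454, 491 and 432 CPM with MITF siRNA, against 358, 363 and 374 CPM with scrambled siRNA. SEC61A1 did not overlap in either pair, at -0.45 (SE 0.044, adjusted p = 1.11e-10) and 0.33 (SE 0.043, adjusted p = 2.05e-07). SEC61B had 54.7, 57.8 and 59.3 CPM with MITF overexpression, against 73.8, 73.8 and 74.5 CPM with the empty vector. SEC61B had 69.2, 75.6 and 68.2 CPM with MITF siRNA, against 69.9, 66.6 and 65.4 CPM with scrambled siRNA. SEC61B fell with overexpression, at -0.37 (SE 0.055, adjusted p = 4.6e-07), and overlapped with MITF siRNA, at 0.08 (SE 0.053, adjusted p = 0.282). SSR1 is a subunit of the translocon-associated complex. SSR1 had 386, 371 and 387 CPM with MITF overexpression, against 419, 458 and 452 CPM with the empty vector. It had 512, 565 and 515 CPM with MITF siRNA, against 495, 502 and 470.4 CPM with scrambled siRNA. SSR1 was lower in the first pair, at -0.21 (SE 0.046, adjusted p = 0.000137), and higher in the second, at 0.12 (SE 0.045, adjusted p = 0.0409). The second call was lost without MITF siRNA replicate 2 (adjusted p = 0.356), without scrambled siRNA replicate 1 (0.0533), 2 (0.0785) or 3 (0.267), in a fit of the pair alone (0.111), in DESeq2 (0.0506) and under upper quartile scaling (0.132). SEC24D is a cargo adaptor of the COPII coat that buds from the ER. SEC24D had 33.6, 32.4 and 36.3 CPM with MITF overexpression, against 51.6, 56.6 and 55.8 CPM with the empty vector. It had 62.4, 71.2 and 62.4 CPM with MITF siRNA, against 38.2, 42.4 and 45.2 CPM with scrambled siRNA. SEC24D was lower with overexpression, at -0.68 (SE 0.069, adjusted p = 3.02e-10), and higher with MITF siRNA, at 0.64 (SE 0.065, adjusted p = 1.31e-09), with no overlap.

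**Figure D3:**
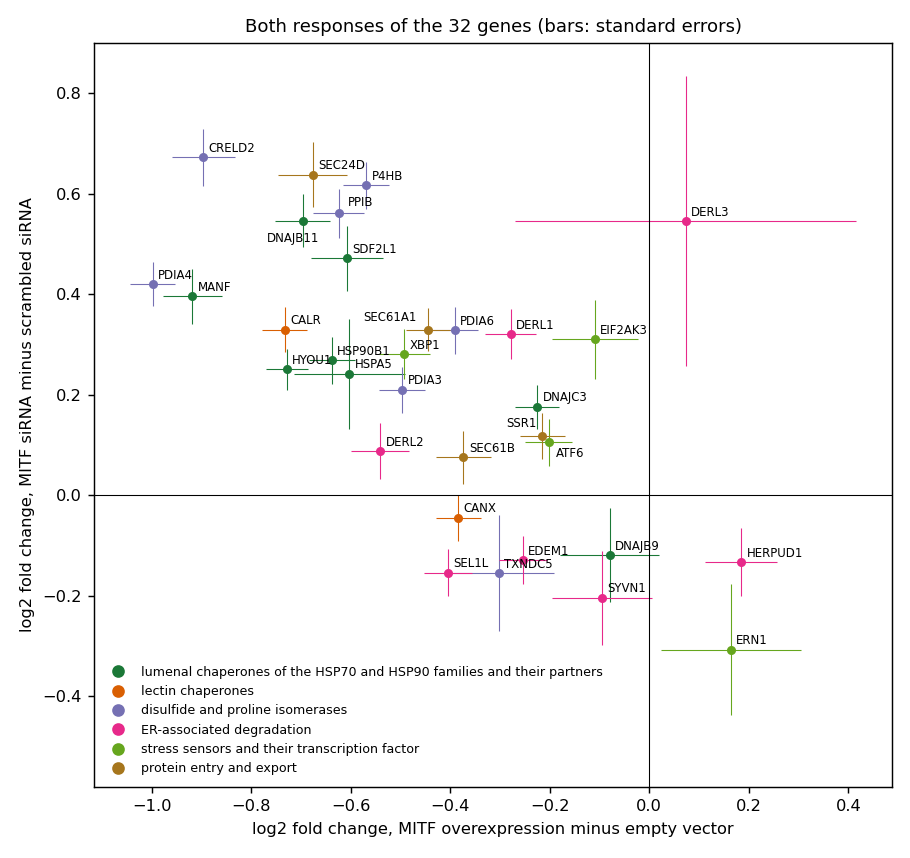
Log2 fold change of each of the 32 genes with MITF overexpression against the empty vector (x axis) and with MITF siRNA against scrambled siRNA (y axis), with standard errors as bars and colour by role. The chaperones and isomerases lie mainly at the upper left, CRELD2 at -0.90 and 0.67, while SEL1L, EDEM1, CANX, TXNDC5, SYVN1 and DNAJB9 are below 0 on both axes.

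The difference between the responses was tested directly as (MITF overexpression minus empty vector) minus (MITF siRNA minus scrambled siRNA). It was called lower in 25 genes, higher in 2 and not called in 5, against 29.8% of all genes lower and 27.1% higher. The median difference was -0.667, against 0.000101 over all genes. The lowest values were -1.57 (SE 0.084, adjusted p = 1.72e-17) in CRELD2 and -1.42 (SE 0.062, adjusted p = 8.1e-20) in PDIA4, and SEC24D and MANF followed at -1.31 and -1.31. HERPUD1 differed the other way, at 0.32 (SE 0.098, adjusted p = 0.00782), as did ERN1, at 0.47 (SE 0.19, adjusted p = 0.0352). The ERN1 call was lost without empty vector replicate 3 (adjusted p = 0.122), without MITF overexpression replicate 2 (0.057) or 3 (0.0607), without MITF siRNA replicate 1 (0.0589), without scrambled siRNA replicate 1 (0.126) and in DESeq2 (0.115). DNAJB9, SYVN1, EDEM1, DERL3 and TXNDC5 were not called. The difference uses the same libraries as both pairs and is not independent of them. A lower call does not mean opposite responses, since SEL1L and CANX were called lower with both fold changes below 0. In 20 of the 32 genes the mean was lowest with MITF overexpression and highest with MITF siRNA. How often all tested genes have this order was not counted, so the 20 genes have no background to be read against.

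Scrambled siRNA and empty vector cells differed in transduction and transfection as well as in MITF, which was 1.54-fold higher after scrambled siRNA. These cannot be told apart. In the set, 13 genes were lower and 2 higher with scrambled siRNA, where 19.6% of all genes were called lower and 18.9% higher, and the median was -0.0329, against -0.000234 over all genes. The set took 0.965 times the share of counts it took with the empty vector, and the exact permutation p was again 0.1, the smallest possible. TXNDC5 (-0.53 (SE 0.12, adjusted p = 0.000517)), SEC24D (-0.37 (SE 0.07, adjusted p = 6.03e-05)) and XBP1 (-0.28 (SE 0.052, adjusted p = 3.57e-05)) fell furthest. HERPUD1 and SSR1 rose, at 0.32 (SE 0.073, adjusted p = 0.000961) and 0.14 (SE 0.046, adjusted p = 0.0121). The SSR1 call was lost without empty vector replicate 1 (adjusted p = 0.12) and without scrambled siRNA replicate 2 (0.0686). HSPA5, HYOU1 and SDF2L1 had values near 0, at -0.02, 0.00 and -0.02, and were not called. The count of 13 lower genes came to 8 without empty vector replicate 1, 7 without empty vector replicate 2, 6 without empty vector replicate 3, 8 without scrambled siRNA replicate 2 and 5 without scrambled siRNA replicate 3. In DESeq2 it came to 9, and without the filter on low counts also to 9.

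Each MITF group was also set against the other control, with which it shares no delivery method. MITF itself was called higher in both comparisons. Against scrambled siRNA, MITF overexpression gave 0.49 for MITF (SE 0.05, adjusted p = 8.61e-10). Against the empty vector, MITF siRNA gave 0.18 for MITF (SE 0.051, adjusted p = 0.00545), so MITF was not lower there. That call was lost without MITF siRNA replicate 3 (adjusted p = 0.0601). MITF overexpression against scrambled siRNA gave 24 genes lower, 0 higher in edgeR (1 at an unadjusted p under 0.05, 0 in DESeq2) and 8 not called, against 26.4% of all genes lower and 24.2% higher, with a median of -0.357 (all genes 0.00558). PDIA4 was again lowest, at -0.89 (SE 0.045, adjusted p = 2.74e-18). HERPUD1 stood at -0.14 (SE 0.068, adjusted p = 0.0938) and TXNDC5 at 0.23 (SE 0.11, adjusted p = 0.0893), neither called, although HERPUD1 was higher and TXNDC5 lower against the empty vector. MITF siRNA against the empty vector gave 18 genes higher, 5 lower and 9 not called, against 21.8% of all genes higher and 20.8% lower, with a median of 0.238 (all genes 0.00423). CRELD2 (0.48 (SE 0.057, adjusted p = 1.66e-08)) and P4HB (0.48 (SE 0.047, adjusted p = 1.81e-10)) rose, while XBP1 stood at -0.00 (SE 0.05, adjusted p = 0.973). TXNDC5, SEL1L, EDEM1, DERL2 and ATF6 were the 5 lower genes. The ATF6 call (adjusted p = 0.0386) was made with overlapping libraries and was lost without empty vector replicate 2 (0.126) or 3 (0.102), without MITF siRNA replicate 1 (0.146) or 3 (0.167), without the filter on low counts (0.0751), in DESeq2 (0.0859) and in a fit of the pair alone (0.0637). Of the higher genes, the HERPUD1 call was lost without empty vector replicate 2 (adjusted p = 0.125) or 3 (0.117). It was also lost without MITF siRNA replicate 1 (0.0978) or 3 (0.108) and under upper quartile scaling (0.0907). The HSP90B1 call was lost without empty vector replicate 3 (0.0716) or MITF siRNA replicate 2 (0.0733) and in a fit of the pair alone (0.0573). Both comparisons with the other control share libraries with those above and are not independent of them.

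The members with an ERSE or ERSE-II match were described beside the others. With overexpression 9 of these 10 fell and 1, HERPUD1, rose, and their median log2 fold change was -0.605. Of the 18 members with a window and neither motif, 14 fell, with a median of -0.338. With MITF siRNA 7 of 10 rose (median 0.274), against 9 risen and 2 fallen of 18 without a motif (median 0.111). Of the 4 members without a window, whose motifs were not searched, 3 fell with overexpression (median -0.387) and 3 rose with MITF siRNA (median 0.433). Of all tested genes, 30.8% were called lower and 28.6% higher with overexpression, and 18.7% higher and 16.7% lower with MITF siRNA. The classes were not tested against each other. PDIA4, DNAJB11 and MANF, which had neither motif in this window, stood at -0.998, -0.70 and -0.92 with overexpression, and HERPUD1, which had one, at 0.18.

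Genes of the same pathway outside the set were taken as 7 further lists of 150 genes, of which 145 were tested. With MITF overexpression 86 were lower and 23 higher, and with MITF siRNA 75 were higher and 14 lower. The counts of each list are to be read against all tested genes, of which 30.8% were lower and 28.6% higher with overexpression, and 18.7% higher and 16.7% lower with MITF siRNA. In translocation and signal peptide cleavage 14 of 20 fell and 1 rose with overexpression, led by the signal peptidase subunit SEC11C (-0.92) and the translocation factor TRAM1 (-0.53). With MITF siRNA 11 of 20 rose and 2 fell, led by SSR2 (0.59) and SEC11A (0.46). In N-glycosylation 12 of 18 fell and 0 rose in edgeR (0 at an unadjusted p under 0.05, 0 in DESeq2) with overexpression, with malectin, MLEC, at -0.50 and the oligosaccharyltransferase subunit DDOST at -0.40. With MITF siRNA 13 of 18 rose and 2 fell, with MLEC at 0.55 and the glucosidase subunit PRKCSH at 0.43.

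Of the oxidative folding and other folding factors, 20 of 27 were lower and 1 higher with overexpression, and 20 of 27 were higher with MITF siRNA. With MITF siRNA 0 were lower in edgeR, 1 at an unadjusted p under 0.05 and 0 in DESeq2. The oxidase ERO1B had 38.2, 33.6 and 36.9 CPM with MITF overexpression, against 92.5, 91.4 and 90.9 CPM with the empty vector, at -1.34 (SE 0.058, adjusted p = 2.79e-20). The collagen chaperone SERPINH1 had 164, 160.4 and 168 CPM with MITF overexpression, against 324, 310.2 and 322 CPM with the empty vector, at -0.96 (SE 0.046, adjusted p = 5.66e-19). SERPINH1 also led with MITF siRNA, at 0.81 (SE 0.045, adjusted p = 6.55e-16), followed by the membrane isomerase TMX4, at 0.67. Both groups of SERPINH1 were apart in both pairs. Of the COPII and ER exit genes 16 of 21 fell and 2 rose with overexpression, with the cargo receptor MCFD2 at -0.55 and the retrieval receptor KDELR2 at -0.59. With MITF siRNA 11 of 21 rose and 3 fell, with the coat subunits SEC23A at 0.51 and SEC13 at 0.47.

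Of other ER-associated degradation factors 11 of 23 were lower and 7 higher with overexpression, where the share higher is near the 28.6% of all genes. EDEM3 stood at -0.45 and FAM8A1, a cofactor of HRD1, at 0.48. With MITF siRNA 10 of 23 rose and 2 fell, with the mannosidase MAN1B1 at 0.35 and AUP1 at 0.29. Of other stress transducers and regulators 9 of 19 fell and 3 rose with overexpression, with the kinase MAP3K5 at -1.17 and the ubiquitin-like modifier UFM1 at -0.55. With MITF siRNA 8 of 19 rose and 3 fell, with the protease MBTPS1, which cuts ATF6, at 0.41 and the cell death suppressor TMBIM6 at -0.40.

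**Figure D4:**
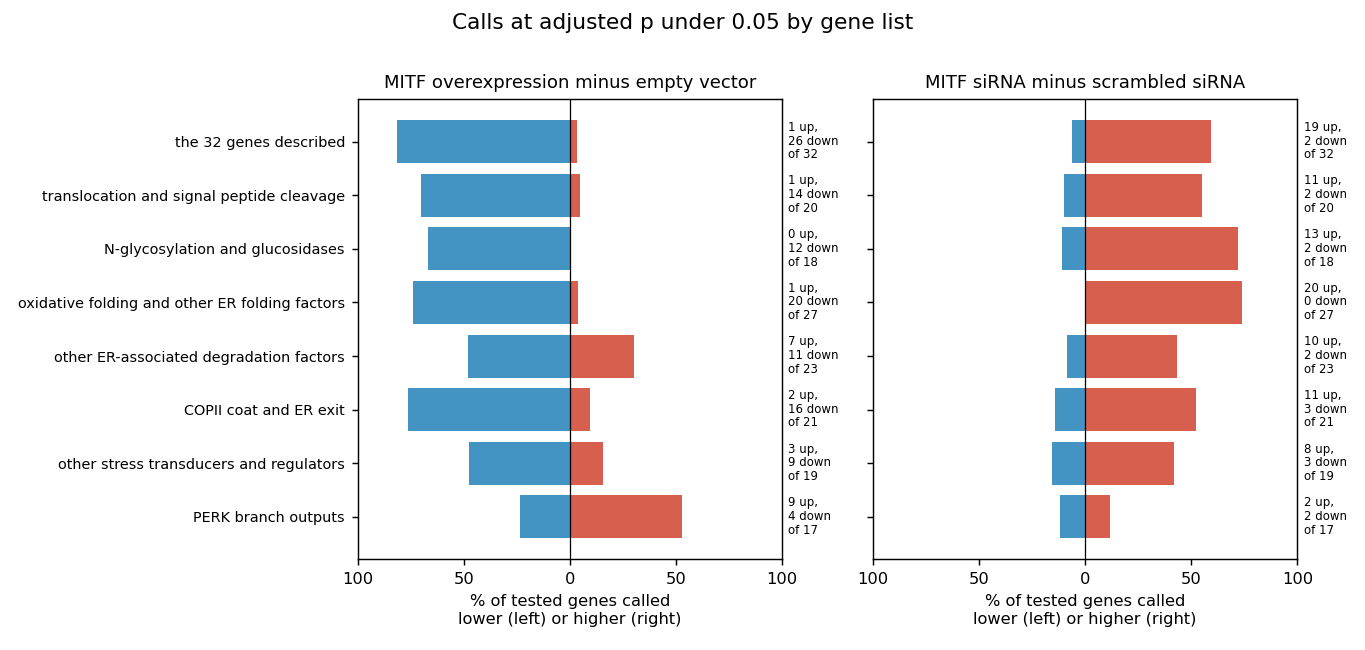
Percent of tested genes called lower (blue, left of 0) or higher (red, right of 0) in the 32 genes and the 7 further lists, for MITF overexpression against the empty vector and MITF siRNA against scrambled siRNA, with counts beside the bars. In the left panel the list named PERK branch outputs has more genes higher (9) than lower (4) of 17.

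The further list named PERK branch outputs also holds EIF2S1, NCK1 and ERN2, which are not outputs of PERK, and PERK activity was not measured. Of its tested genes 9 of 17 rose and 4 fell with overexpression, against 28.6% of all genes higher and 30.8% lower. With MITF siRNA 2 rose and 2 fell, a share below the 18.7% higher and 16.7% lower among all genes. By the naming rule, TRIB3, a pseudokinase induced by ATF4, rose, and DDIT4, an inhibitor of mTORC1, fell. TRIB3 had 51.8, 52.8 and 49.8 CPM with MITF overexpression, against 32.6, 24.4 and 31.2 CPM with the empty vector, at 0.78 (SE 0.075, adjusted p = 7.06e-11). DDIT4 had 155, 156 and 153 CPM with MITF overexpression, against 264, 256 and 257 CPM with the empty vector, at -0.75 (SE 0.05, adjusted p = 4e-15). DDIT3, which encodes CHOP, was named by the rule in the siRNA pair together with SESN2, at -0.55 (SE 0.11, adjusted p = 0.000451) and 0.48 (SE 0.093, adjusted p = 0.000117). DDIT3 had 12.6, 11.2 and 10.6 CPM with MITF siRNA, against 19.0, 15.0 and 16.3 CPM with scrambled siRNA, and 25.9, 31.8 and 24.0 CPM with MITF overexpression, against 13.8, 11.6 and 14.9 CPM with the empty vector, at 1.01 (SE 0.11, adjusted p = 2.22e-08). Its libraries did not overlap in either pair.

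ATF4, CHAC1, PPP1R15A and NUPR1, of the same list, were chosen after their values were seen. They do not stand for the list, of which 9 of 17 rose, 4 fell and 4 were not called with overexpression. ATF4, the transcription factor of the PERK branch, had 419.7, 414 and 388 CPM with MITF overexpression, against 327, 318 and 313 CPM with the empty vector, at 0.35 (SE 0.046, adjusted p = 4.82e-08). CHAC1, a glutathione-degrading enzyme, had 5.79, 5.54 and 3.89 CPM with MITF overexpression, against 1.101, 1.65 and 1.92 CPM with the empty vector, at 1.78 (SE 0.23, adjusted p = 2.44e-08). PPP1R15A, which encodes GADD34 and ends the block of translation, was not called, with 52.6, 60.5 and 54.9 CPM with MITF overexpression, against 60.9, 64.1 and 66.7 CPM with the empty vector, at -0.19 (SE 0.082, adjusted p = 0.0579). ATF4 and CHAC1 were higher in every library with MITF overexpression, whereas PPP1R15A was lower in every library without passing the test. NUPR1, a small stress-induced nuclear protein, had 56, 74 and 41 counts with MITF overexpression, against 1, 0 and 2 counts with the empty vector. Over the summed counts, relative to the scaled totals, that is a ratio of 31.4 (95% exact Clopper-Pearson interval 10.6 to 154, counting error only), and the gene was called higher (adjusted p = 1.96e-10). NUPR1 had 0, 1 and 1 counts with MITF siRNA, against 0, 1 and 2 counts with scrambled siRNA, too few for a fold change. The difference of the responses was called for ATF4 (0.37 (SE 0.065, adjusted p = 1.08e-05)), DDIT3 (1.56 (SE 0.16, adjusted p = 6.11e-09)), TRIB3 (0.81 (SE 0.11, adjusted p = 1.37e-07)) and CHAC1 (2.19 (SE 0.35, adjusted p = 1.84e-06)).

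**Figure D5:**
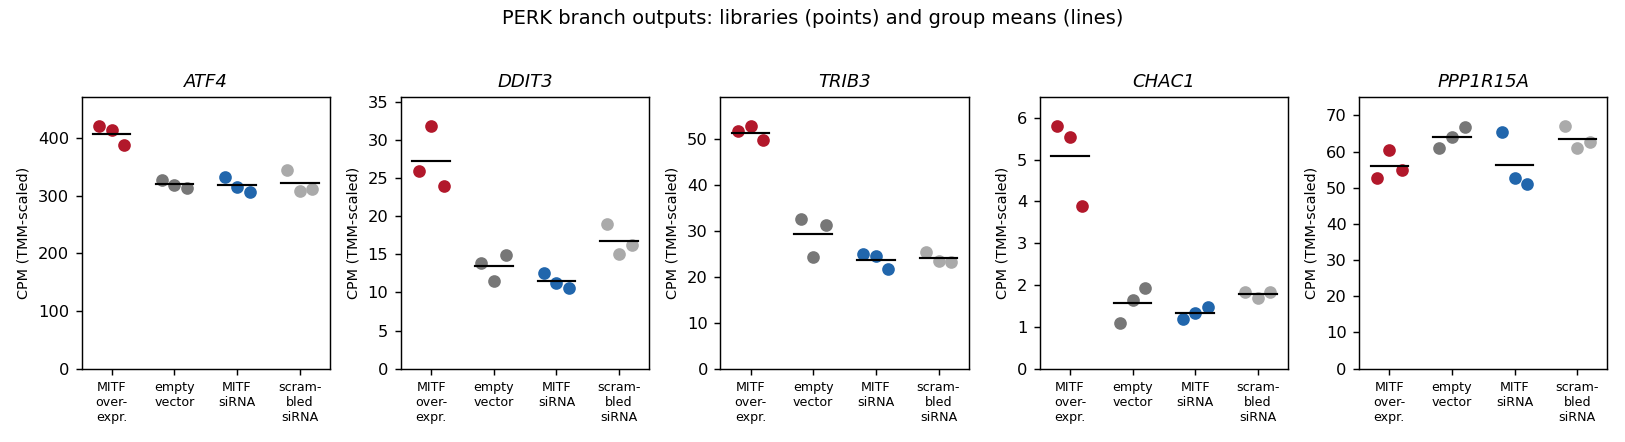
CPM (y axis, from 0) of 5 PERK branch genes in each library (points) with group means (lines), in the order MITF overexpression, empty vector, MITF siRNA, scrambled siRNA. ATF4, DDIT3, TRIB3 and CHAC1 are highest with MITF overexpression, and PPP1R15A is not. The 5 genes do not stand for their list, of which 9 of 17 were called higher and 4 lower with MITF overexpression against the empty vector.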

How the data were processed

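The 12 libraries were read as paired ends of 76 bases after a stranded total RNA preparation, per the labels. The deposited file is 1 table by the authors with whole-number raw counts for 26364 genes, without normalization; 0 columns went unused and 0 rows lacked a gene name. Per the submitters' processing notes the tools included STAR 2.6.0, featureCounts 1.6.3, SAMtools 1.10 and bcl2fastq 2.18.0, and the build was hg19. Settings of these tools, strand handling among them, are not stated there.

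Genes were filtered with edgeR 4.0.16 (filterByExpr, minimum count 10) and scaled by TMM (factors 0.955 to 1.04) in R 4.3.3. A quasi-likelihood fit of 4 group means over all 12 libraries gave fold changes and tests for 6 comparisons, and standard errors were derived from the test statistic. Genes were called at an adjusted p under 0.05 over 14297 genes. For a gene without counts, 3 counts correspond to 0.404 CPM in the library with the fewest counts and 0.125 CPM in that with the most; such limits cover counting error only. The fit was also run on simulated counts, drawn with far fewer changed genes than in these data, which checks the code only. Alternatives were other scaling, no filter, DESeq2 1.42.0, a fit of the compared groups alone, a replicate block and leaving out each library.

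The members and the gene lists were chosen with earlier results of these data known. All 32 members are described, and from each further list the 2 genes with the smallest p in a comparison are named. Overlapping genes were found in an annotation of build GRCh38. Members not named above for this, among them DERL2 with MIS12 and CRELD2 with ALG12, also share exon bases with genes on the opposite strand.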

Additional observations from a re-analysis of the deposited data

How the results depend on the processing

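Directions of the called members held under every alternative run, and none was reversed. In DESeq2, 0 members were called higher with MITF overexpression against the empty vector, 1 lower with MITF siRNA against scrambled siRNA, and 1 higher in the difference of the responses. Leaving out each library in turn gave, for MITF overexpression against the empty vector, 0 to 1 members higher and 25 to 26 lower. For MITF siRNA against scrambled siRNA it gave 17 to 19 higher and 1 to 2 lower, and for the difference of the responses 1 to 2 higher and 25 to 25 lower. For scrambled siRNA against the empty vector it gave 1 to 2 higher and 5 to 11 lower. The 13 lower genes of the full fit thus depend on which libraries are used. They also depend on the method, with 9 in DESeq2, 9 without the filter on low counts and 11 under upper quartile scaling. The lowest counts were 5 without scrambled siRNA replicate 3 and 6 without empty vector replicate 3, and 7, 8 and 8 were left without empty vector replicates 2 and 1 and without scrambled siRNA replicate 2. Against the other control, leaving out each library gave 0 to 0 higher and 23 to 25 lower for MITF overexpression, and 16 to 18 higher and 4 to 6 lower for MITF siRNA. The causes were not tested. Upper quartile scaling called 22 genes of the further lists lower with MITF siRNA, against 14. No pairing by replicate number was seen: of 18 pairs with the same number 1 correlated above 0.1 (range -0.201 to 0.104), as did 4 of 36 pairs with different numbers. With 3 libraries per group a weak pairing could be missed. With the replicate block, 26 members were lower with MITF overexpression and 19 higher with MITF siRNA. The block ended the call of SEC61B between the controls (adjusted p = 0.0551) and made one for DERL3 with MITF siRNA against the empty vector (adjusted p = 0.0391). Depth limits DERL3, ERN1 and TXNDC5 most, whose counts were the fewest of the set.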
